A study of Homo sapiens with 6 samples.

Results

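The clustered protocadherins are cell surface adhesion proteins of the cadherin superfamily, encoded in 3 neighbouring gene clusters, alpha, beta and gamma, on human chromosome 5. The members were all genes whose symbol in the deposited count files has the form of an alpha (PCDHA, PCDHAC), beta (PCDHB) or gamma (PCDHGA, PCDHGB, PCDHGC) protocadherin followed by its number. This gave 54 of the 60609 gene rows, with 16 alpha, 16 beta and 22 gamma genes, and 45 of the 54 had at least 1 count among the 34998 genes with a count in any library. The question addressed was how poly(A) RNA of these genes differed when TIP60, a histone acetyltransferase and histone exchange complex, lost its TRRAP module. The cells were K562, an established human leukaemia line, in which the gene of EP400, the scaffold and ATPase subunit of TIP60, carries a homozygous degradation tag. The WT group expressed wild-type EP400 from the AAVS1 safe harbour locus, and the Delta-TRRAP group expressed there an EP400 without the domains that hold TRRAP. All 6 libraries, 3 per group, came from cells given 500 nM dTAGV-1, the molecule that degrades the tagged protein, for 24 h, so the WT group had also lost its endogenous EP400. Each complemented line was 1 clone, so clone and genotype cannot be told apart and the replicates do not cover differences between clones.

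Each alpha and gamma gene has its own promoter and its own large first exon, which encodes the extracellular and transmembrane part of the protein, and this exon is spliced to constant exons shared by the whole cluster. Beta genes have no constant exons and are mostly 1 exon each. In neurons, single cells switch on different subsets of these promoters, with CTCF and cohesin bound at promoters and distant enhancers and with DNA methylation at promoters that stay silent, and the proteins on neighbouring cells bind like to like and serve self-recognition. The last members of the alpha and gamma clusters, called C-type (PCDHAC1, PCDHAC2, PCDHGC3, PCDHGC4 and PCDHGC5), are known for broader expression in neurons that does not follow this choice.

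Most of these promoters are known to share a conserved element around the letters CGCT, and windows of 30 bases around a CGCT are shown because they mark which members have alike promoters and which of those differed in the counts described afterwards. The sequences are from RefSeq (GRCh38.p14, plus strand of chromosome 5, the strand of the genes), read 5′ to 3′ with the CGCT core in capitals, and 47 of the 54 members were found in the promoter table, which holds for each gene 250 bases before and 50 bases after its RefSeq start. For PCDHA9, PCDHA11 and PCDHGA8 that start lies 610, 774 and 2476 bases after the GENCODE gene start used for positions here, so their windows hold no base upstream of the latter. In promoters with several copies of CGCT, the window most like the commonest bases of its cluster was taken. PCDHA5 (chr5:140821542-140821571) is the alpha gene with the most reads and PCDHB2 (chr5:141094544-141094573) the beta gene with the most. PCDHB3 (chr5:141100393-141100422) is the neighbour of PCDHB2 and was near 0. PCDHGA1 (chr5:141330403-141330432), PCDHGA6 (chr5:141373835-141373864), PCDHGB4 (chr5:141387617-141387646, chosen after its values were seen) and PCDHGB5 (chr5:141397863-141397892) are gamma genes that were higher in Delta-TRRAP, while PCDHGA10 (chr5:141412931-141412960) was at nearly the same mean in both groups. PCDHAC2 (chr5:140966365-140966394) and PCDHGC4 (chr5:141484952-141484981) are C-type genes without a single count. Their windows matched the commonest bases of their clusters at 18 and 19 of 30 positions, against a median of 24 in either cluster, so these letters alone do not show the same element.
PCDHA5: ttcatccacatgatgtCGCTggacaccgga
PCDHB2: aagagacgcggggtggCGCTgcagccttag
PCDHB3: agcgaacgcatggtggCGCTgttgactaag
PCDHGA1: ttaggactgtgggcgcCGCTgttcactaat
PCDHGA6: ttaggactctaagcgtCGCTgttgaccaac
PCDHGB4: tgctgactctgggcgcCGCTgttggccaaa
PCDHGB5: tgctgactctgggcgcCGCTgttggccaaa
PCDHGA10: ttaggactctgagcgcCGCTgttcacctac
PCDHAC2: ctgagcagtccgggttCGCTgtccgccact
PCDHGC4: ggctgagcccgggagcCGCTgtctgccaat

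The letters CGCT occurred in silent and expressed members alike. CGCT or its reverse complement AGCG was found in 46 of the 47 promoters (97.9%) against 70.0% of all 35116 promoters of the table. The remaining one was PCDHA9, whose window lies after the GENCODE start. On the strand of the gene the same 46 held CGCT, against 54.3% of all promoters. The letters around the core separated the clusters: GGTGGCGCT was in 13 of 14 beta promoters and in no alpha or gamma promoter, and in 0.302% of all promoters. GATGTCGCT was in 9 of 13 alpha promoters, in no beta or gamma promoter and in 0.0740% of all promoters. In the gamma cluster the letters varied more, and GGCGCCGCT was in 6 of 20 promoters and 0.496% of all. These strings, searched on the strand of the gene, are the core with the commonest 5 bases before it in each cluster, so they were taken from the windows themselves and contain the core. The window began with the same letters in PCDHGA6 and PCDHGA10, and the windows of PCDHGB4 and PCDHGB5 were identical over all 30 bases. A match here is a description of letters and does not show that a factor binds.

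The 6 libraries held 35076835 to 42616061 counts in genes, and 3 counts, the limit that a count of 0 allows, corresponded to 0.0704 to 0.0855 CPM (the count scaled to library size), which covers counting error only. The normalized count is the count divided by the relative library size after TMM scaling, and the 19114 genes whose mean over the 6 libraries reached 5 were tested. A gene was called when its adjusted p in the edgeR quasi-likelihood test (Benjamini-Hochberg) was at most 0.01 and its level differed at least 2-fold, and all adjusted p-values given here are from that test. EP400 itself was 5057 ± 277 normalized counts (SD, n = 3) in WT and 5574 ± 1238 in Delta-TRRAP (log2 fold change 0.14 ± 0.11 SE, adjusted p = 0.272). It checks neither the degradation, which acts on the protein, nor the deletion, since the tagged gene and the transgene are counted together. All 9 erythroid markers of K562 were measured above the minimum, but so were some markers of other cell types, so this alone does not identify the cells. The summed level of the erythroid markers lay between 30421 and 33393 in WT and between 44866 and 50339 in Delta-TRRAP. At the adjusted p alone 4 of the 9 were higher, of which HBZ (log2 fold change 2.89) and HBE1 (2.08) were called, and 2 were lower, GATA1 (-0.18) and HBG1 (-0.41). Markers of other cell types also differed: of 8 neuronal markers 3 were tested and 2 were called higher (SYT1 and GAP43), the sum lay between 87.5 and 110.4 in WT and between 312 and 364 in Delta-TRRAP, and RBFOX3, STMN2 and NEFL were at 0. Of 8 fibroblast markers 4 were tested and 2 were called higher (COL1A2 and PDGFRB), PDGFRB from a WT mean of 1.65 normalized counts and not by DESeq2, and PDGFRA and LUM were at 0. Their sums were 35.5 to 57.0 and 909.7 to 973, nearly all of the difference being COL1A2 (means of 1.62 and 875.5), while COL1A1 (log2 fold change 0.06) and DCN (-0.41) did not pass. Of 7 lymphoid markers 4 were tested and PTPRC was called lower, with sums of 16285 to 16864 and 4160.2 to 4692, and MS4A1 at 0. For comparison, 16.5% of all 19114 genes tested were called higher and 6.08% lower. At the adjusted p alone the shares were 30.7% and 27.6%. Where the mean level lay between 5 and 100, 30.8% were called higher and 6.31% lower. With so few markers per list, these counts alone do not show a change of cell type. The part of the markers in the protocadherin results was not tested. In these bulk samples fewer expressing cells and less RNA per cell cannot be told apart.

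Protocadherin RNA was scarce in WT cells and higher in Delta-TRRAP cells, and most of it came from the gamma cluster. All members together took 263, 261 and 284 counts in the WT libraries and 624, 744 and 556 in the Delta-TRRAP libraries, or 6.12 to 7.11 and 15.9 to 19.3 CPM, so the groups did not overlap. At least 1 count was found for 28, 28 and 27 members in WT and for 31, 39 and 37 in Delta-TRRAP, although the Delta-TRRAP libraries were the shallower ones. This was not particular to the family, since 25668 to 25998 genes had a count in the WT libraries and 27928 to 28033 in the Delta-TRRAP libraries. Counts were present in Delta-TRRAP only for 9 members and in WT only for 0. Of these, PCDHB16 had 3, 2 and 1 counts in Delta-TRRAP, and each of the others had 1 or 2 reads in total. The share of all genes with counts in only 1 group was not computed, so this split does not show that members were switched on.

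Of the 54 members, 18 passed the minimum, and 11 of those were called higher and 0 lower. At an unadjusted p under 0.05 12 were higher and 0 lower, and the share of all genes at that threshold was not computed. DESeq2 and limma-voom each called 11 higher and 0 lower. Of all 19114 genes tested, DESeq2 called 2887 higher and 1096 lower, and limma-voom called 3130 higher and 1153 lower. By edgeR, 16.5% of all genes tested were called higher and 6.08% lower. These 18 genes are not the whole family: 36 members were too low to test, and 4 of the 18 had a WT mean under 5 and so passed through their Delta-TRRAP level. Among genes as weakly expressed as these (mean normalized count of 5 to 100, 7655 genes, a range chosen after the values were seen), 30.8% were called higher and 6.31% lower, and the median log2 fold change was 0.44, against 0.03 over all genes tested. With library sizes in place of TMM factors the median of all genes became 0.17, which left the calls at 10 gamma genes and 1 beta gene.

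The alpha cluster was at the detection limit in both groups. Its 16 genes summed to 7, 7 and 4 counts in WT and to 7, 17 and 6 in Delta-TRRAP, so the groups overlapped and Delta-TRRAP replicate 2 stood apart. In total the cluster gave 18 counts in WT (95% Poisson interval 10.7 to 28.4) and 30 in Delta-TRRAP (20.2 to 42.8), and without Delta-TRRAP replicate 2 the log2 ratio of the scaled sums fell from 0.74 to 0.15. No alpha gene passed the minimum, and 7 of the 16 had no count in any library.

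PCDHA5, the alpha gene with the most reads, counted 2, 2 and 3 in WT and 1, 6 and 2 in Delta-TRRAP. The groups overlapped, and no library held more than 6 reads of any alpha gene. Both C-type alpha genes, PCDHAC1 and PCDHAC2, had 0 counts in all 6 libraries. PCDHA14 is annotated as a transcribed unprocessed pseudogene and has no exon base of its own in the release used here. Whether this held in the earlier release used for counting was not checked, so its 0 may only reflect the annotation.

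In the beta cluster 1 gene carried most of the reads. PCDHB2 (ENSG00000112852, chr5:141094606-141098703, a gene of 1 main coding exon whose protein is thought to take part in neuronal cell adhesion) counted 12, 10 and 12 in WT and 39, 57 and 50 in Delta-TRRAP. The lowest Delta-TRRAP library was above the highest WT library by more than the whole range of WT. Its normalized count was 11.3 ± 1.5 (SD, n = 3) in WT and 48.9 ± 9.32 in Delta-TRRAP, and the log2 fold change was 2.10 ± 0.25 (SE, adjusted p = 2.86e-06). PCDHB2 rose 4.29-fold, and it was called in each fit that left out 1 library, with log2 fold changes of 1.98 to 2.25.

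The other beta genes were too low to be tested one by one. Together these 15 genes counted 4, 8 and 6 in WT and 20, 34 and 16 in Delta-TRRAP, with no overlap between the groups. Their total was 18 counts in WT (95% Poisson interval 10.7 to 28.4) and 70 in Delta-TRRAP (54.6 to 88.4), a ratio of 3.91 after scaling, against 4.18 for the whole cluster. PCDHB7 alone had no count in any library. Members named here after their values were seen are PCDHB14, with 0, 2 and 0 counts in WT and 2, 9 and 1 in Delta-TRRAP, and PCDHB5, with 1, 0 and 1 in WT and 6, 4 and 2 in Delta-TRRAP. PCDHB5 did not overlap between the groups, whereas PCDHB14 did and rested on Delta-TRRAP replicate 2. PCDHB3, beside PCDHB2 on the chromosome, had 1, 2 and 1 counts in WT and 0, 3 and 0 in Delta-TRRAP.

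**Figure D1:**
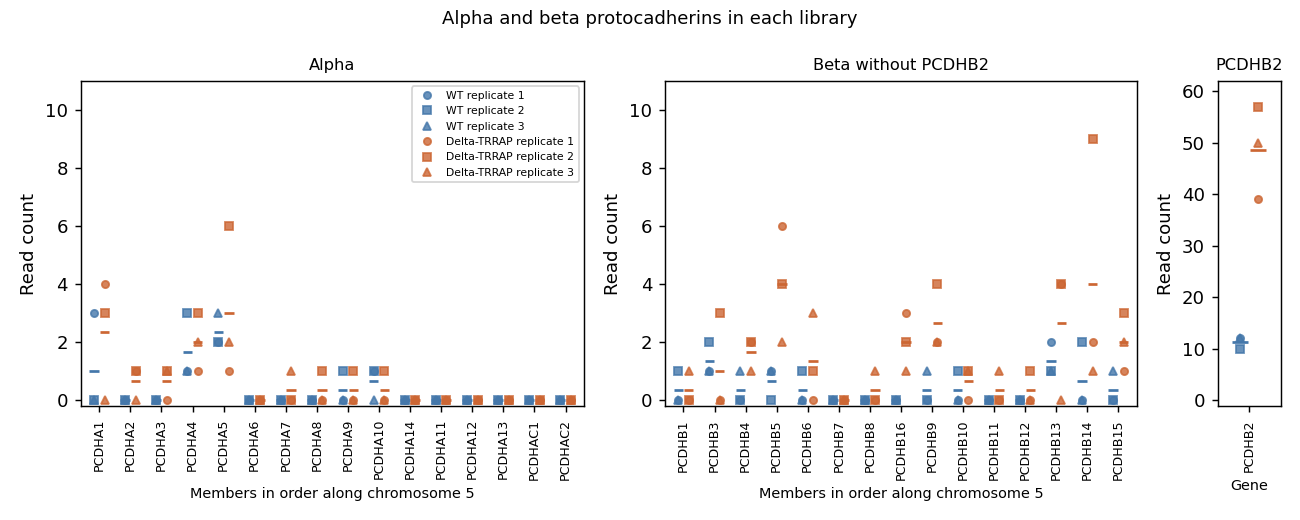
Read counts of each alpha member (left), each beta member except PCDHB2 (middle) and PCDHB2 on its own scale (right), by library; blue is WT, orange is Delta-TRRAP, symbols are replicates 1 to 3 and bars are group means. Alpha members stay at 6 reads or fewer, and PCDHB2 lies between 39 and 57 in Delta-TRRAP and between 10 and 12 in WT.

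The gamma cluster held most of the family's reads and rose over much of its length. Its 22 genes summed to 240, 236 and 262 counts in WT and to 558, 636 and 484 in Delta-TRRAP, or 245 ± 20.2 and 560 ± 55.1 normalized counts (SD, n = 3), a ratio of 2.28. Of the 22 genes, 17 were tested, 10 were called higher and 0 lower, and all 17 log2 fold changes were above 0, with a median of 1.14 and a range of 0.01 to 2.10. Over all genes tested 52.0% had a log2 fold change above 0, and 65.3% of the weakly expressed genes did. Of the 17, 4 had a WT mean under 5 and passed the minimum through their Delta-TRRAP level, which fixed their direction in advance. PCDHGA10, at 0.01, changed sign between fits, so the count of 17 above 0 is not stable. Every Delta-TRRAP library was above every WT library for 12 of the 17, against 37.4% of all genes tested and 44.5% of the weakly expressed ones.

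Reads that touch the constant exons belong to every gamma gene at once and were not counted for any of them in the authors' counting. The constant part, shared by 22 genes, spans exons of 59, 89 and 2029 bases, and in the alpha cluster it spans 2869 bases shared by 15 genes. Each gamma or alpha value therefore counts reads on that gene's own exons, in most cases the first exon, and reads of the constant exons are missing from all of them. PCDHGB4 and PCDHGA8 shared 4443 exon bases with other genes, against 2177 in the gamma constant part. Each earlier gamma A or B gene also spans the first exons of the later ones on the same strand. Reads of unspliced RNA from an earlier gene would be counted for a later one, and their number was not measured. First exons of one cluster also resemble each other. Up to 25.5% of the 100-base windows of a member (PCDHB8) occurred elsewhere in the family, and for PCDHB2 it was 11.5%. The authors kept uniquely mapped reads, and how many reads such stretches cost was not measured, since the read length is not given in the sources used here.

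PCDHGA6 and PCDHGA1 had the highest gamma counts. PCDHGA6 (chr5:141373891-141512975) counted 29, 16 and 22 in WT and 81, 89 and 88 in Delta-TRRAP. All Delta-TRRAP libraries were far above WT, where replicate 1 was the highest. The normalized count went from 22.4 ± 7.02 to 86.4 ± 6.83 (log2 fold change 1.95 ± 0.20 SE, adjusted p = 5.87e-07), the smallest adjusted p of the family. PCDHGA1 (chr5:141330514-141512975), the first gene of the cluster, counted 29, 27 and 38 in WT and 80, 78 and 64 in Delta-TRRAP. The groups were well apart, with 31.3 ± 6.60 and 74.1 ± 5.64 normalized counts and a log2 fold change of 1.24 ± 0.18 (adjusted p = 2.25e-05).

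The genes with the largest rises lay side by side in the middle of the cluster. PCDHGB3 and PCDHGB4 are below the 8 called genes with the highest means and are named here after their values were seen. PCDHGA5 counted 7, 11 and 8 in WT and 22, 47 and 33 in Delta-TRRAP (log2 fold change 1.97 ± 0.34, adjusted p = 0.000103). PCDHGB3 counted 6, 5 and 4 in WT and 20, 23 and 22 in Delta-TRRAP (2.10 ± 0.33, adjusted p = 4.58e-05). Both were apart in all libraries, with Delta-TRRAP replicates of PCDHGB3 close together and those of PCDHGA5 spread. PCDHGA7, 2 genes further on, counted 7, 8 and 8 in WT and 34, 23 and 21 in Delta-TRRAP (1.75 ± 0.31, adjusted p = 0.000137). PCDHGB4 counted 4, 8 and 3 in WT and 21, 18 and 19 in Delta-TRRAP (1.94 ± 0.37, adjusted p = 0.000258). PCDHGB3 and PCDHGB4 had WT means just under 5 normalized counts, 4.98 ± 1.02 and 4.93 ± 2.43, so they were testable because of their Delta-TRRAP level.

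On both sides of these genes the rises were smaller and, for some, near the threshold of the call. PCDHGA8 counted 17, 20 and 21 in WT and 40, 47 and 40 in Delta-TRRAP (log2 fold change 1.14 ± 0.21, adjusted p = 0.000211). It was called in every fit that left out 1 library. PCDHGA4 counted 12, 11 and 16 in WT and 33, 43 and 17 in Delta-TRRAP (1.25 ± 0.33, adjusted p = 0.00324). PCDHGB2 counted 12, 16 and 28 in WT and 44, 52 and 28 in Delta-TRRAP (1.15 ± 0.30, adjusted p = 0.00298). PCDHGB5 counted 20, 18 and 25 in WT and 51, 49 and 30 in Delta-TRRAP (1.05 ± 0.24, adjusted p = 0.00133). In these last 3 genes Delta-TRRAP replicate 3 was the lowest of its group, and for PCDHGB2 its raw count equalled the highest WT count, so the groups were separated by the scaling alone. Their calls were lost in fits with 1 library fewer: PCDHGA4 and PCDHGB2 without WT replicate 1, WT replicate 2, Delta-TRRAP replicate 1 or Delta-TRRAP replicate 2, and PCDHGB5 without WT replicate 2, Delta-TRRAP replicate 1 or Delta-TRRAP replicate 2. The log2 fold changes then lay between 0.91 and 1.21, near those of all 6 libraries, and the adjusted p-values between 0.00341 and 0.0207.

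**Figure D2:**
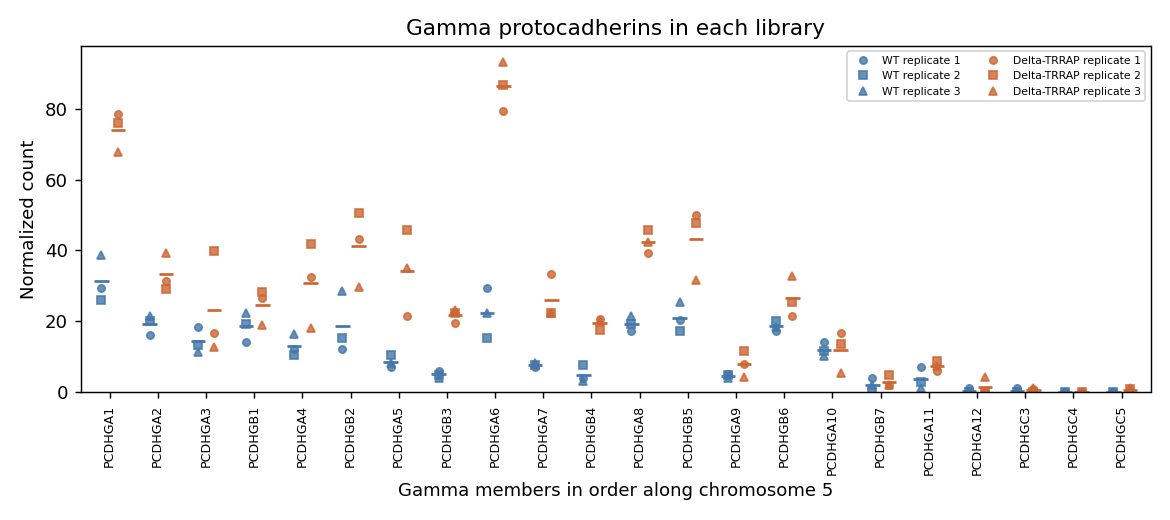
Normalized counts of the 22 gamma members in their order along the chromosome, by library; blue is WT, orange is Delta-TRRAP, symbols are replicates 1 to 3 and bars are group means. From PCDHGA4 to PCDHGB5 every orange point lies above the blue points of the same gene, while from PCDHGA9 onward the groups lie close together or overlap for most genes.

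The remaining 7 tested gamma genes were not called, and are named here after their values were seen. PCDHGA2 passed the adjusted p but not the fold change (16, 21 and 21 counts in WT, 32, 30 and 37 in Delta-TRRAP, 1.72-fold, adjusted p = 0.00848), with no overlap between the groups. PCDHGB6 also did not overlap, with 17, 21 and 18 counts in WT and 22, 26 and 31 in Delta-TRRAP, but its adjusted p was 0.0881. PCDHGA3 counted 18, 14 and 11 in WT and 17, 41 and 12 in Delta-TRRAP, where replicate 2 alone was high. For PCDHGA3, PCDHGB1, PCDHGA9 and PCDHGA11 the groups overlapped, with log2 fold changes of 0.71, 0.41, 0.77 and 0.99 and adjusted p-values of 0.129, 0.188, 0.160 and 0.122. PCDHGA10 was level at 12.0 ± 2.04 and 11.9 ± 5.90 normalized counts (14, 12 and 10 against 17, 14 and 5 counts), and its log2 fold change of 0.01 ± 0.38 changed sign between fits. Its standard error was above the median of 0.31 over the tested gamma genes.

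The C-type gamma genes were at the floor in both groups. PCDHGC4 had no count in any library, PCDHGC3 had 1, 0 and 0 in WT and 1, 0 and 1 in Delta-TRRAP, and PCDHGC5 had 0, 0 and 0 in WT and 0, 1 and 1 in Delta-TRRAP. All 5 C-type members of the family together gave 1 count in WT (95% Poisson interval 0.0253 to 5.57) and 4 in Delta-TRRAP (1.09 to 10.2). The reads of the gamma cluster thus came from its A and B members, which gave 737 of 738 counts in WT and 1674 of 1678 in Delta-TRRAP.

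The called gamma genes formed a run on the chromosome. From PCDHGA4 to PCDHGB5 lie 9 neighbouring genes, and all 9 were called. PCDHGA1 was the only other called gamma gene, and from PCDHGA9 on none was called. There, PCDHGB7 and PCDHGA12 were too low to test, and PCDHGA9 and PCDHGA11 had WT means of 4.64 and 3.66 normalized counts and SEs of 0.47 and 0.55. Within the run, the calls of PCDHGA4, PCDHGB2 and PCDHGB5 were lost in some fits with 1 library fewer. The extent of the run thus depends in part on depth and on the threshold. Split at these points, which were chosen after the values were seen, the scaled sums gave ratios of 1.86 for PCDHGA1 to PCDHGB1, 2.87 for PCDHGA4 to PCDHGB5 and 1.41 for PCDHGA9 to PCDHGA12. The counts of the last block were 48, 41 and 35 in WT and 55, 66 and 53 in Delta-TRRAP. Each block was higher in all Delta-TRRAP libraries than in all WT libraries, and differences between the blocks were not tested.

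Level itself declined along the cluster in both groups. Levels per kilobase are approximate, because exon lengths are from a later GENCODE release than the one the authors counted on. Per kilobase of a gene's own exons, the normalized count of the 19 gamma A and B genes ranged from 0.124 to 7.75 in WT with a median of 3.89, and from 0.519 to 18.0 in Delta-TRRAP with a median of 8.38. The highest per-length level in WT was that of PCDHGB5 (7.75), close to that of PCDHGA1 (7.59), and in Delta-TRRAP that of PCDHGA1 (18.0), followed by PCDHGB5 (15.9) and PCDHGB2 (15.6), neighbours in rank that do not differ beyond their spread over libraries, and PCDHGA12, the last of them, was the lowest in both groups. Across these 19 genes, which share libraries and neighbouring DNA and are not independent, Spearman's rho of level against order was -0.67 in WT and -0.68 in Delta-TRRAP, and the levels of the 2 groups had a rho of 0.83 with each other. For the 17 tested genes, rho of the log2 fold change was -0.21 with order and -0.25 with the WT level per kilobase. Genes kept much of their rank, and the size of the change followed neither measure closely.

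**Figure D3:**
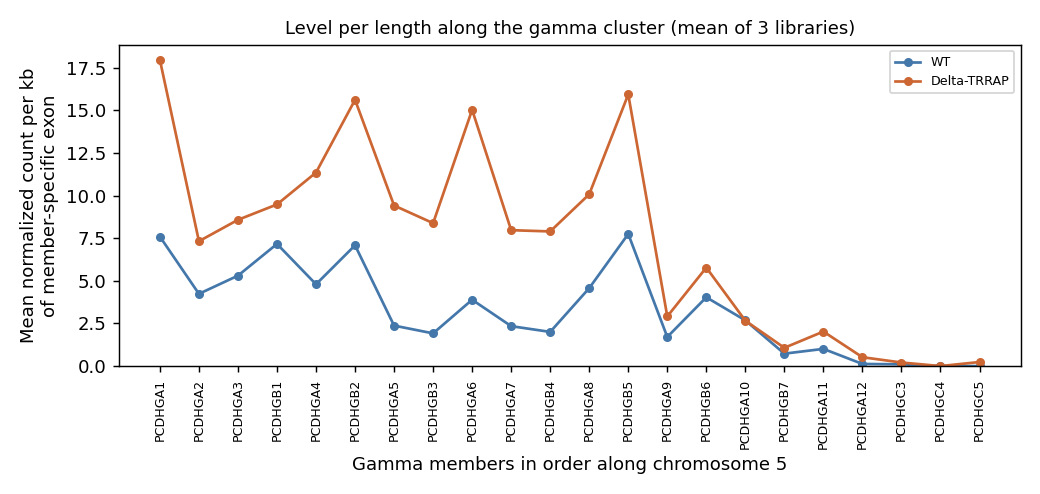
Mean normalized count per kilobase of member-specific exon (vertical axis) for the gamma members in order along the chromosome; blue is WT and orange is Delta-TRRAP, each point a mean of 3 libraries. The level in WT peaks at 7.75 and in Delta-TRRAP at 18.0, and both lines are near 0 for the C-type genes at the right.

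The promoters of called and uncalled gamma genes were alike in these letters. CG dinucleotides, the sites of DNA methylation, were at 0.516 of the number expected from base composition (median of 10 called genes, 0.257 to 0.802) and at 0.564 (median of 8 uncalled A and B genes, 0.340 to 0.854), and the median over all promoters of the table was 0.579. The log2 fold change had a rho of -0.03 with this ratio over the 17 tested genes. The conserved window matched the commonest gamma bases at a median of 25 of 30 positions in called genes and 23.5 in uncalled A and B genes. PCDHGB4 and PCDHGB5, whose windows are identical, both were called, with log2 fold changes of 1.94 and 1.05.

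Genes around the clusters showed both directions. Of 21 genes listed in the flanks and between the clusters, 19 were tested, 0 were called higher and 2 lower, with the same counts by DESeq2 and limma-voom, and at the adjusted p alone as at an unadjusted p under 0.05 9 were higher and 4 lower, with a median log2 fold change of 0.18. Over all genes tested, 16.5% were called higher and 6.08% lower, and at the adjusted p alone 30.7% were higher and 27.6% lower. The share of all genes at the unadjusted p was not computed. TAF7, a subunit of the general transcription factor TFIID that lies between the beta and gamma clusters, went from 10746 ± 421 to 13387 ± 450 normalized counts (log2 fold change 0.32 ± 0.05, adjusted p = 6.0e-05). IK (0.56 ± 0.05) and RNF14 (0.18 ± 0.05) also passed the adjusted p. DIAPH1, a formin of the actin cytoskeleton just beyond the gamma cluster, fell by 1.03 on the log2 scale (adjusted p = 1.97e-09), and ARAP3, a GTPase activating protein further on, fell by 1.82 (adjusted p = 2.45e-11). The DIAPH1 call was lost without WT replicate 3 (-0.995) and without Delta-TRRAP replicate 3 (-0.973), and with library size scaling (-0.899) or a minimum mean of 20 (-0.999), where the fold change was just under the threshold.

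Of 31 other annotated genes inside the span of the clusters, a set chosen after the values were seen, 3 were tested, TAF7 among them. The other two are long non-coding RNA genes on the same strand just before PCDHGA1. AC005618.4 (chr5:141320910-141325985) counted 45, 40 and 21 in WT and 75, 94 and 68 in Delta-TRRAP, and was called higher (log2 fold change 1.17 ± 0.22, adjusted p = 0.000212). AC005618.1 (chr5:141326210-141329363) counted 63, 63 and 60 in WT and 100, 127 and 84 in Delta-TRRAP (0.75 ± 0.15, adjusted p = 0.000502) and stayed under the fold change. Neither overlapped between the groups, and PCDHGA1 begins about 1 kb after the second. The 5 protocadherin pseudogenes of the clusters were near 0, and none was tested.

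**Figure D4:**
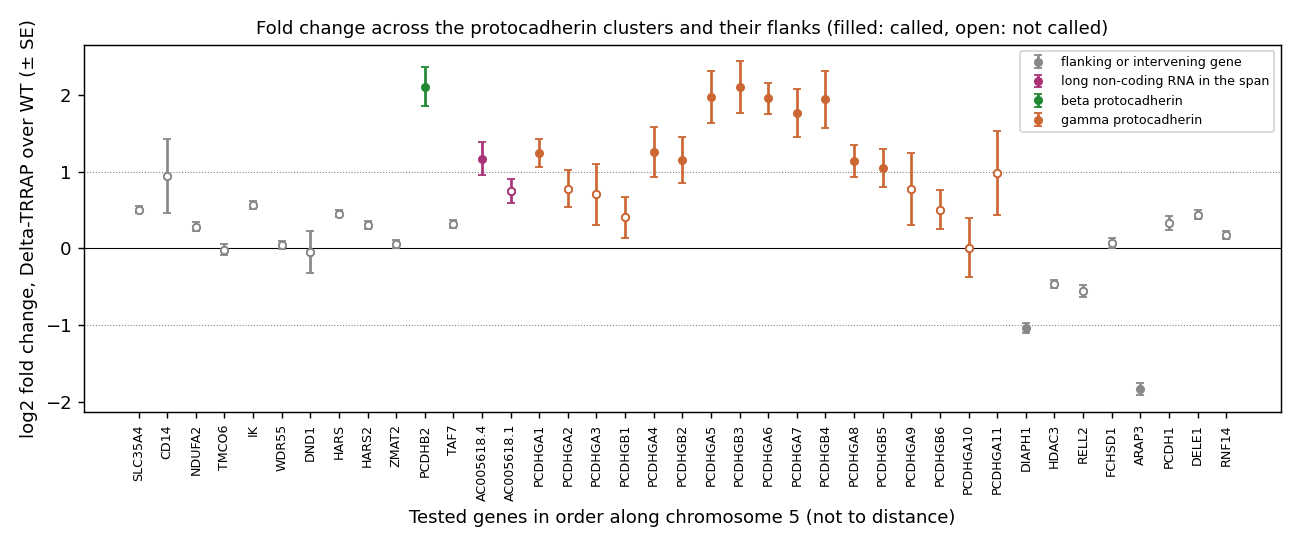
Log2 fold change of Delta-TRRAP over WT with its SE (vertical axis) for every tested gene across the clusters and their flanks, in chromosome order and not to distance; filled points were called, open points were not, and dotted lines mark a 2-fold change. The run from PCDHGA4 to PCDHGB5 lies above 1, and the called genes to the right of the gamma cluster, DIAPH1 and ARAP3, lie below -1.

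Protocadherins outside the clusters gave few measured genes. Of 12 listed, 3 were tested, and 4 (PCDH7, PCDH8, PCDH11X and PCDH20) had no count. PCDH9, a protocadherin of chromosome 13, was called higher, with 633 ± 7.50 normalized counts in WT and 1368 ± 8.85 in Delta-TRRAP (log2 fold change 1.11 ± 0.05, adjusted p = 8.62e-11). PCDH1 passed the adjusted p at a log2 fold change of 0.33 ± 0.10, and PCDH10 had 0.38 ± 0.49 (adjusted p = 0.510) with overlapping groups.

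Genes of the machinery known to act on these promoters were measured as well. Of 26 listed factors of chromosome architecture, DNA methylation and heterochromatin, all 26 were tested, 0 were called higher and 2 lower, and the median log2 fold change was -0.31. DESeq2 and limma-voom also called 0 higher and 2 lower, and over all genes tested 16.5% were called higher and 6.08% lower by edgeR. At an unadjusted p under 0.05, 2 of the 26 were higher and 19 lower, and the share of all genes at that threshold was not computed. At the adjusted p alone 17 were lower, 2 were higher and 7 did not pass, against 27.6% lower and 30.7% higher over all genes tested. The 26 factors had means of 568 to 19485 normalized counts, against a median of 302 over all genes tested. Shares among genes as strongly expressed were not computed. UHRF1, which guides maintenance DNA methylation, fell by 1.30 on the log2 scale (adjusted p = 1.24e-11), and DNMT3B, a de novo DNA methyltransferase, fell by 1.16 (adjusted p = 3.04e-11). The cohesin subunits RAD21 and STAG2 fell by 0.63 and 0.52, and SMC1A, another subunit, had 0.09 ± 0.08 with overlapping groups. TRIM28, a heterochromatin co-repressor, fell by 0.59. CTCF, named here after its values were seen, fell by 0.17 ± 0.05 (adjusted p = 0.00985), and SETDB1, a histone methyltransferase that silences these clusters in neurons, went from 1920 ± 65.3 to 1913 ± 80.4 normalized counts (adjusted p = 0.941). The part of these factors in the protocadherin differences was not tested.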

How the data were processed

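Poly(A) RNA-seq of 3 WT and 3 Delta-TRRAP libraries was analysed from the counts per gene that the authors deposited: uniquely mapped reads aligned to hg38 with STAR and counted on GENCODE genes with HTSeq 2.0.2 (version from the submitters' processing notes) in reverse-stranded union mode. A deposited table of normalized values, which holds 3 columns of another condition, and a table of the authors' own fold changes and p-values were not used. The test was edgeR 4.0.16 under R 4.3.3 (TMM scaling, quasi-likelihood F test, group as the only term, Benjamini-Hochberg adjustment over the 19114 genes whose normalized count averaged 5 or more), with the adjusted p of 0.01 and 2-fold thresholds of the study's methods. The fit was tested on simulated data. Intervals of summed counts are exact 95% Poisson intervals, for counting error only. Positions and exon lengths are from GENCODE release 44 on GRCh38, and the release of the authors was an earlier one.

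Members and gene lists were chosen with earlier results of these data known. Named members were, in each cluster, the called genes (up to the 8 with the highest mean), the gene with the highest mean and the C-type genes (others are marked in the text), and, from other lists, the 4 with the highest mean and called genes. The alternatives were DESeq2 1.42.0, limma-voom (limma 3.58.1), other scalings and filters, a 1.5-fold threshold, a replicate block, and each library left out in turn.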

Additional observations from a re-analysis of the deposited data

How the results depend on the processing

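The gamma count of 10 genes called higher was 7 to 11 over the 14 alternatives: 10 with DESeq2, limma-voom, either other scaling, no filter and the replicate block, 11 at a 1.5-fold threshold (PCDHGA2 was added), 7 with a minimum mean of 20, where fewer genes were tested, and 7 to 10 when single libraries were left out. The beta count stayed at 1 (PCDHB2) and the alpha count at 0, and no member was called lower in any of them. The log2 ratio of the summed gamma counts moved from 1.19 to 1.32 under library size scaling, which shifted the median of all genes. PCDHGA10 changed sign, with -0.010 by DESeq2, -0.12 by limma-voom, -0.0014 with RLE scaling, -0.017 with no filter, -0.020 with the replicate block and -0.32 to 0.34 when single libraries were left out. With single libraries left out, EP400 ranged from -0.026 (without Delta-TRRAP replicate 2) to 0.29 (without Delta-TRRAP replicate 3, adjusted p = 0.00149 by edgeR) and PCDH10 from -0.25 (without Delta-TRRAP replicate 1) to 0.81. The cause of these changes was not tested. Same-numbered WT and Delta-TRRAP libraries did not deviate together (correlations of -0.0293 to -0.0095 over 3 pairs), so no effect of pairing by number was seen. These correlations cannot show whether same-numbered samples were grown or processed together. The block gave 3049 genes higher and 1135 lower over the whole table against 3160 and 1162. A minimum mean of 20 gave 1980 higher. Depth limits the alpha, most beta and the C-type genes, which were too low for a test of each gene.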
